A study of Mus musculus with 8 samples.

Results

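Myc and 39 genes that act with it or in the nucleolus, the compartment in which ribosomes are built, were examined in intestinal stem cells. The 40 genes were found by their symbols in the table of normalised counts and joined by their gene identifiers to the table of read counts, in which all 40 were present among 53801 genes. All 40 were also among the 16445 genes with enough counts to be tested. RNA had been sequenced from Lgr5-GFP+ cells sorted from crypts of the mouse intestine, 4 libraries labelled β-catGOF; Mll1-/- and 4 labelled β-catGOF; Mll1+/-, each from 1 animal. Both groups carry a β-catenin allele that gains function when recombination removes the exon that marks the protein for degradation. Recombined cells of both groups thus have permanently active Wnt signalling, and no group with normal β-catenin enters the comparison. The groups differ in whether both copies or 1 copy of Mll1 (Kmt2a, a methyltransferase of histone H3 lysine 4) were deleted. Recombination was driven by a tamoxifen-inducible Cre expressed from the Lgr5 locus, which acts in Lgr5+ cells and is inherited by their progeny. The study describes crypts that had not recombined beside mutant crypts, and the sort used no marker of recombination. The share of recombined cells in each library is therefore not known, and other cells would make differences between the groups smaller. Mice received 50 mg/kg tamoxifen on 3 consecutive days at 4 to 6 weeks of age. Cells were taken 10 days after induction by a sort that used EpCAM, CD45 and CD24 antibodies. Libraries are named J_ followed by the animal number of the label.

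Myc is a transcription factor that dimerises with Max and binds the E-box, a short palindromic DNA motif, near the start of many genes for growth and metabolism. It is a well-known target of Wnt signalling in the intestinal epithelium. In the nucleolus, RNA polymerase I transcribes the ribosomal RNA precursor, small nucleolar ribonucleoproteins (snoRNPs) guide its chemical modification, and large sets of assembly factors cleave and fold it into the small and the large ribosomal subunit. Many genes for these factors are known to respond to Myc, and their levels are commonly read as a sign of cell growth.

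The libraries held between 14468751 and 16847793 counts on genes, and 3 counts, the upper limit that a count of 0 allows, stood for 0.162 to 0.241 CPM (counts relative to the size of the library, scaled between libraries with TMM). Lgr5 was present at 232 to 277 CPM in Mll1-/- and at 215 to 308 CPM in Mll1+/- libraries, and Ptprc, which encodes CD45, was at or below 0.957 CPM in all 8. Counts over the whole Kmt2a gene were 53.5 to 78.5 CPM in Mll1-/- and 48.9 to 64.9 CPM in Mll1+/- libraries (log2 fold change 0.24 ± 0.17 SE, adjusted p = 0.71). The count table pools all exons of Kmt2a, so it does not show whether the floxed exons were lost, and the genotypes are used as labelled. Library J_7135 (Mll1-/-) stood apart: its highest rank correlation with any other library was 0.909, against 0.947 to 0.966 for the others. Mitochondrial genes held 21.4% ± 4.42 of the counts in Mll1-/- and 26.7% ± 3.18 in Mll1+/- libraries (SD, n = 4 each, exact two-sided permutation test, p = 0.114).

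None of the 40 genes passed an adjusted p of 0.1 between the genotypes in edgeR's quasi-likelihood test, and 0 passed with DESeq2 or limma-voom. Over all 16445 genes, 14 passed with edgeR (0.0851%), 406 with DESeq2 and 103 with limma-voom. Of the 40, 27 had a positive and 13 a negative log2 fold change of Mll1-/- over Mll1+/-, with a median of 0.06 beside 0.01 over all genes tested, of which 50.8% were positive. Before adjustment, 3 members had a p under 0.05 in edgeR (Rrp1 and Ftsj3 with higher, Utp4 with lower levels in Mll1-/-), which is 7.5% of the members against 9.15% of all genes. DESeq2 gave 5 such members (12.5%, against 11.2% of all genes), the same 3 with Mybbp1a and Nip7, and limma-voom gave 2 (5%, against 10.6%), Utp4 and Mycn. The 4 Mll1-/- libraries did not lie entirely above or below the 4 Mll1+/- libraries for any member (0 of 40), while 6.28% of all genes were separated in this way. The smallest adjusted p among the members was 0.475 and the smallest exact permutation p was 0.0571, in a design of 70 assignments whose smallest two-sided p is 0.0286.

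The members are mostly well expressed, with 36 of 40 above a mean of 10 CPM, and the background for their spread was not matched on level. Their median SD within a genotype was 0.308 on the log2 scale against 0.437 for all genes, and their median absolute log2 fold change was 0.144 against 0.275. For 31 of 40 members (77.5%) the 95% interval of the log2 fold change lay within 1 log2 unit on either side of 0, which held for 45.3% of all genes. A doubling or halving of these 31 genes lay outside their intervals, whereas smaller differences could not be told from 0 at this spread. In RNA from pools of sorted cells, fewer cells of a type and less RNA per cell cannot be told apart.

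**Figure D1:**
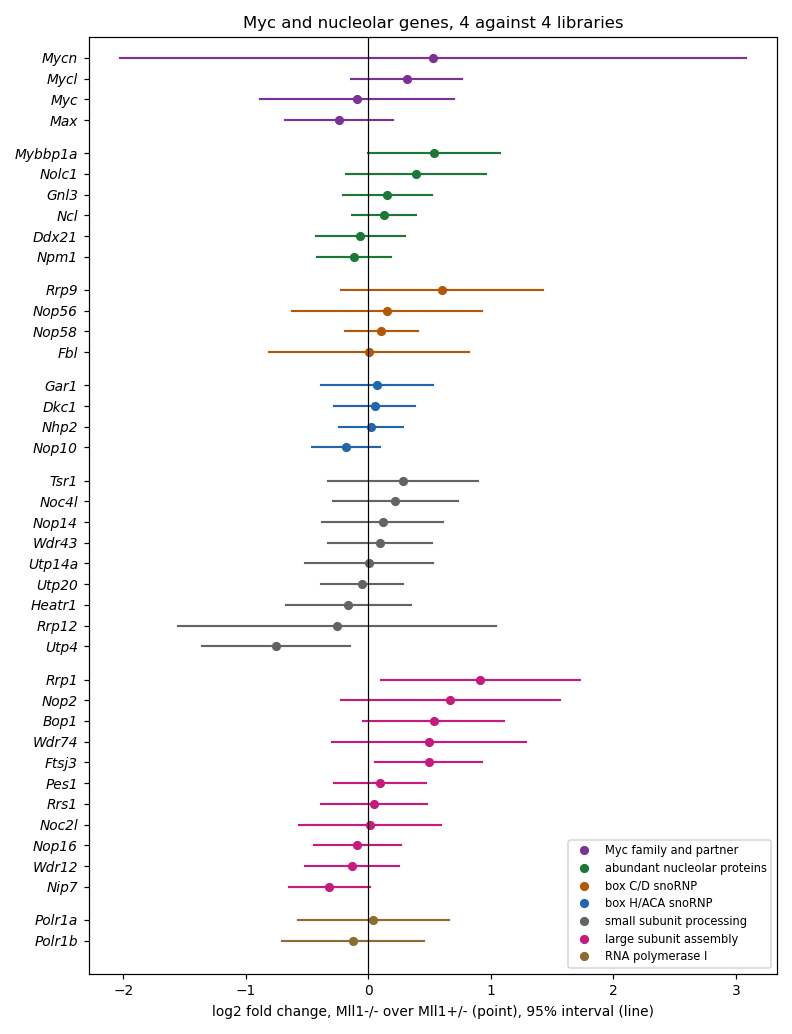
Fitted log2 fold change of each of the 40 genes, Mll1-/- over Mll1+/- (points, horizontal axis), with its 95% interval (lines), grouped and coloured by role. The intervals of Utp4, Rrp1 and Ftsj3 leave out 0 before adjustment for multiple testing, and those of all the other genes include it.

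Myc itself was expressed at 95.9, 63.4, 199.8 and 64.6 CPM in the Mll1-/- libraries J_7075, J_7096, J_7135 and J_7136, and at 121.8, 110.7, 88.0 and 131.9 CPM in the Mll1+/- libraries J_7079, J_7100, J_7134 and J_7139. J_7135 held the highest level of all 8 libraries and J_7096 the lowest, so the Mll1-/- range enclosed the Mll1+/- range. The log2 fold change was -0.09 ± 0.35 (SE, 95% interval -0.88 to 0.70, adjusted p = 0.96). This value rested on 1 library. Without J_7135 the Mll1-/- mean was 74.6 ± 18.4 CPM (SD, n = 3) against 113 ± 18.8 CPM in Mll1+/- (n = 4), and the log2 fold change was -0.60, with an unadjusted edgeR p of 0.0144 and an adjusted p of 0.365.

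Mycl, which encodes a Myc paralogue of the same dimerisation partner, was found at 91.5, 65.8, 81.0 and 58.5 CPM in Mll1-/- (same order of libraries) and at 80.0, 49.6, 55.3 and 54.0 CPM in Mll1+/- libraries. The ranges overlapped, and the log2 fold change was 0.31 ± 0.20 (adjusted p = 0.68). Mycn, a further paralogue, was close to the limit of detection, at 1.89, 2.20, 0.433 and 2.36 CPM in Mll1-/- and at 0.539, 0.352, 3.93 and 0 CPM in Mll1+/- libraries. The 0 counts in J_7139 allow up to 0.194 CPM, and its log2 fold change was 0.53 ± 1.14 (interval -2.03 to 3.08, adjusted p = 0.93). This value too rested on 1 library. Without J_7134 it was 2.50 (edgeR, adjusted p = 0.67), and limma-voom with quality weights on all 8 libraries gave 2.27 (adjusted p = 0.46). Max, the shared partner, was found at 21.8, 17.7, 18.5 and 14.7 CPM in Mll1-/- and 23.7, 24.0, 18.4 and 19.8 CPM in Mll1+/- (log2 fold change -0.24 ± 0.20, adjusted p = 0.75).

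**Figure D2:**
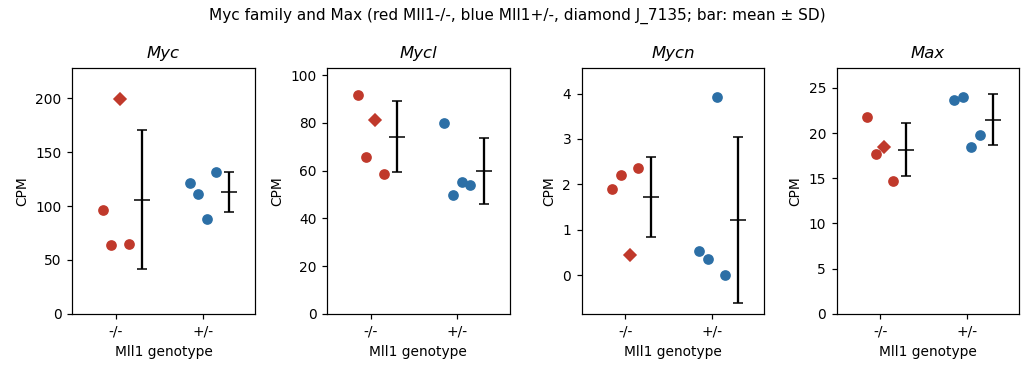
Levels of Myc, Mycl, Mycn and Max in CPM in each library (points; red Mll1-/-, blue Mll1+/-, diamond J_7135), with the mean and SD of each genotype (black, n = 4). The 2 genotypes overlap for all 4 genes, and the diamond is the highest Myc value, at 199.8 CPM.

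The E-box CACGTG, which is its own reverse complement, was searched in the promoters of the members, taken as 250 bases before to 50 bases after the start in RefSeq (GRCm38.p6). A promoter of this kind was found for 34 of the 40 genes, not for Myc, Npm1, Fbl, Rrp12, Rrs1 and Bop1. The motif was present in 8 of 34 (23.5%), against 8.09% of all 27025 genes in the promoter table and 11.7% of the 9860 of them that were tested here. The sites are shown because they are the sequence through which Myc and Max are known to act, with the E-box in capitals and flanks of up to 10 bases. They read 5′ to 3′ on the strand of the gene, and the Mybbp1a and Utp20 sites are cut short by the end of the window. Only the Nop2 site lies wholly upstream of the start, as the rule for printing asked, and the others were added after their positions were seen.
Nop2, chr6:125131813-125131838, plus strand, first base of the motif 60 bases before the start: gtccctggatCACGTGtgttccggtg
Max, chr12:76962236-76962261, minus strand, motif across the start: tgagcccggtCACGTGttagggggcc
Pes1, chr11:3963967-3963992, plus strand, motif from base 3 of the transcript: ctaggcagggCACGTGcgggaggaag
Utp4, chr8:106893645-106893670, plus strand, motif from base 16: cgcaagcgcgCACGTGgggccggggc
Wdr43, chr17:71616222-71616247, plus strand, motif from base 18: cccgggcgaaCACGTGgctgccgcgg
Tsr1, chr11:74898094-74898119, plus strand, motif from base 25: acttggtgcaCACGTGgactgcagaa
Utp20, chr10:88826765-88826787, minus strand, motif from base 38: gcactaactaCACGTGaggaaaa
Mybbp1a, chr11:72441357-72441376, plus strand, motif from base 41: cttctgagccCACGTGtttg

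The log2 fold changes of the 8 genes with the motif ran from -0.75 (Utp4) to 0.67 (Nop2), with 5 positive, 3 negative and a median of 0.10. The 26 genes without it ran from -0.32 (Nip7) to 0.91 (Rrp1), with 19 positive, 7 negative and a median of 0.09. A match of letters is not a measured binding site, and binding was not measured in these files.

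Among the abundant nucleolar proteins, no member passed the threshold, and the libraries of the genotypes overlapped for each. With the set of animal numbers (described below) as a term, the unadjusted edgeR p was 0.0183 for Nolc1 and 0.0376 for Mybbp1a. In that fit their adjusted p was 0.419 and 0.470, and the unadjusted p of the rest of the group was 0.0916 to 0.678. Npm1 encodes nucleophosmin, a histone and ribosome chaperone, and was the member of this group with the highest level per kilobase of gene model. It was found at 874, 919.6, 607 and 783 CPM in Mll1-/- and at 894, 939, 824 and 793 CPM in Mll1+/- libraries, with the lowest value in J_7135. Its log2 fold change was -0.12 ± 0.14 (adjusted p = 0.85), and 29.4% of its sequence words of 31 bases also occur in other annotated transcripts, so its count is uncertain. Ncl, which encodes nucleolin, spanned 967 to 1279 CPM in Mll1-/- and 892 to 1072 CPM in Mll1+/- libraries (log2 fold change 0.13 ± 0.12). The other 4 were Mybbp1a, a Myb-binding nucleolar protein (0.54 ± 0.24, interval -0.0029 to 1.08), Nolc1, a chaperone of snoRNPs (0.39 ± 0.25), Gnl3 or nucleostemin, a GTPase of stem and progenitor cells (0.16 ± 0.16), and Ddx21, an RNA helicase (-0.07 ± 0.16). With genotype as the only term, their adjusted p ran from 0.55 for Mybbp1a to 0.94 for Ddx21. Without J_7135 the values were 0.31 for Mybbp1a, 0.19 for Nolc1, 0.09 for Gnl3, 0.08 for Ddx21 and -0.0065 for Npm1.

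The core proteins of the box C/D snoRNPs, which methylate the ribose of ribosomal RNA, had 4 of 4 log2 fold changes above 0, and none passed. Nop56, a scaffold protein, had the highest level per kilobase of the 4, at 139, 104, 318 and 189 CPM in Mll1-/- and 135, 114, 217 and 209 CPM in Mll1+/- libraries. Its libraries fell by animal number rather than by genotype, as described below for the sets, and its log2 fold change was 0.15 ± 0.34, or -0.23 without J_7135. Nop58, its partner, gave 0.11 ± 0.13, and 0.05 without J_7135. Rrp9, which binds the U3 snoRNA, gave 0.60 ± 0.37, with 39.2 CPM in J_7135 and 11.6 to 20.5 CPM in the other Mll1-/- libraries. Without J_7135 its log2 fold change was 0.12. Fbl, the methyltransferase fibrillarin, was counted at only 2.63 to 5.53 CPM and gave 0.00 ± 0.36, which turned to -0.01 with upper-quartile scaling. Of its sequence words, 21.8% occur elsewhere in the transcriptome, and their part in the low count was not tested.

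The box H/ACA proteins, which convert uridine to pseudouridine, had 3 positive and 1 negative log2 fold changes. Nop10, the smallest of them, had the highest mean level per kilobase of the group, at 329.6, 389.8, 292 and 303 CPM in Mll1-/- and 355, 388, 421 and 333 CPM in Mll1+/- libraries (log2 fold change -0.19 ± 0.12, adjusted p = 0.70). The pseudouridine synthase Dkc1 (0.05 ± 0.15) and its partners Gar1 (0.07 ± 0.20) and Nhp2 (0.02 ± 0.12) completed the group, with adjusted p of 0.95 to 0.98. The intervals of all 4 lay between -0.47 and 0.53.

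Of the 9 small subunit factors, 5 had positive and 4 negative values and the median log2 fold change was 0.00. Wdr43, a factor that loads early on the precursor, had the highest level per kilobase, with 180.2, 148, 164 and 167 CPM in Mll1-/- and 110.5, 131, 208 and 168 CPM in Mll1+/- libraries, and the Mll1+/- range enclosed the Mll1-/- range (0.09 ± 0.19). The others near 0 were Nop14 (0.11 ± 0.22), Utp14a (0.00 ± 0.23, -0.01 with upper-quartile scaling), Utp20 (-0.05 ± 0.15) and Heatr1 (-0.17 ± 0.23), all parts of the processome that cleaves the precursor. Noc4l gave 0.22 ± 0.23 and the late factor Tsr1 0.28 ± 0.27, and without J_7135 they gave 0.05 and -0.0241. For Tsr1, 32.3% of the exonic bases overlap the gene Srr on the other strand, where reads could not be assigned without strand. Rrp12, an export factor of the subunit, was at 0.811 CPM in J_7135 and at 4.87 to 9.46 CPM in the other Mll1-/- libraries, against 4.97 to 7.18 CPM in Mll1+/- (-0.26 ± 0.58, and 0.10 without J_7135).

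Utp4, the remaining small subunit factor, had the smallest p of the 40. It acts early, at the step that couples transcription by RNA polymerase I to processing. Its levels were 55.3, 31.5, 39.1 and 29.1 CPM in Mll1-/- and 66.3, 43.5, 61.7 and 89.9 CPM in Mll1+/- libraries. The lowest Mll1+/- library, J_7100, lay below the highest Mll1-/- library, J_7075. The log2 fold change was -0.75 ± 0.27 (unadjusted p = 0.0194, adjusted p = 0.475). The difference in log2 CPM was -0.36 within the first and -1.14 within the second set of animal numbers, and the fold change without J_7135 was -0.76.

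The 11 large subunit factors held 8 positive and 3 negative values (median 0.10) and both of the other members with an unadjusted p under 0.05. Rrp1, a factor of early precursors of the large subunit, was at 70.5, 64.6, 224.6 and 110.9 CPM in Mll1-/- and at 62.1, 59.0, 58.4 and 70.2 CPM in Mll1+/- libraries. J_7135 was far above all the others and J_7096 lay within the Mll1+/- range. Its log2 fold change was 0.91 ± 0.36 (unadjusted p = 0.0316, adjusted p = 0.505), and 0.39 without J_7135 (unadjusted p = 0.0768). Ftsj3, a methyltransferase of ribosomal RNA, was at 55.5, 46.6, 76.0 and 74.7 CPM in Mll1-/- and at 41.7, 40.1, 54.2 and 43.9 CPM in Mll1+/- libraries. Only J_7134 of the Mll1+/- libraries reached into the Mll1-/- range, and it lay below both Mll1-/- libraries of its own set of animal numbers. The difference in log2 CPM was 0.31 within the first and 0.63 within the second set. The log2 fold change was 0.49 ± 0.20 (unadjusted p = 0.0316, adjusted p = 0.505), and 0.39 without J_7135 (unadjusted p = 0.0742). With the set of animal numbers as a term, the unadjusted edgeR p was 0.0102 for Ftsj3, 0.0348 for Rrp1 and 0.0296 for Utp4. The adjusted p in that fit was 0.361, 0.464 and 0.448.

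**Figure D3:**
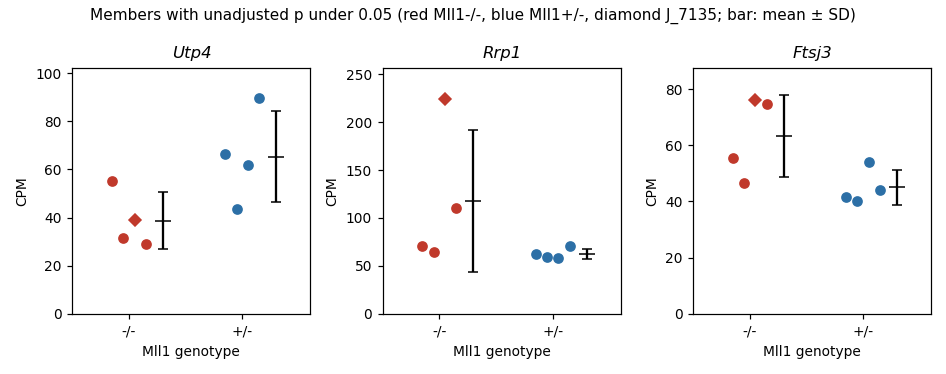
Levels of Utp4, Rrp1 and Ftsj3 in CPM in each library (points; red Mll1-/-, blue Mll1+/-, diamond J_7135), with the mean and SD of each genotype (black, n = 4). The genotypes overlap for each gene, and J_7135 is the highest library for Rrp1, at 224.6 CPM, and Ftsj3, at 76.0 CPM.

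In the PeBoW complex, which processes the precursor of the large subunit RNAs, Bop1 gave 0.53 ± 0.26, Pes1 0.10 ± 0.17 and Wdr12 -0.14 ± 0.17, so its members did not share a sign. Pes1 has 34.8% of its sequence words in other transcripts. Nop2, a cytosine methyltransferase, gave 0.67 ± 0.40 with 64.3 CPM in J_7135 and 17.6 to 28.6 CPM in the other Mll1-/- libraries, and 0.14 without J_7135. Nop16 had the highest level per kilobase of the large subunit group, at 90.6, 88.3, 95.5 and 111 CPM in Mll1-/- and 104, 76.9, 122 and 107 CPM in Mll1+/- libraries, with overlapping ranges (-0.09 ± 0.16). Nip7 was lower in Mll1-/- (-0.32 ± 0.15, unadjusted p = 0.056, adjusted p = 0.56). The others were Wdr74 (0.49 ± 0.35), Rrs1 (0.04 ± 0.19) and Noc2l (0.01 ± 0.26, -0.01 with upper-quartile scaling). Without J_7135 the values were 0.30 for Wdr74, -0.14 for Rrs1, -0.28 for Noc2l and -0.21 for Wdr12. Wdr74 was counted at 2.13 to 4.71 CPM, and 90.7% of its exonic bases overlap a second annotated gene on the same strand, where reads were not counted. For Noc2l, 20.9% of the exonic bases overlap Samd11 on the other strand.

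Of the catalytic subunits of RNA polymerase I, Polr1b had the higher level per kilobase, at 14.7, 29.1, 32.0 and 21.7 CPM in Mll1-/- and 23.3, 25.2, 32.7 and 25.2 CPM in Mll1+/- libraries, again with overlap (-0.13 ± 0.26, and -0.29 without J_7135). The larger subunit Polr1a gave 0.04 ± 0.28, and -0.25 without J_7135. Their adjusted p was 0.92 and 0.98.

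J_7135 gave the highest of the 8 values for 16 of the 40 members (40%) and the lowest for 5 (12.5%), against 24.4% and 25.7% of all genes. Large subunit factors made up 7 of the 16, and 11 of the 40 members. Without this library 21 members had positive and 19 negative log2 fold changes, with a median of 0.03 beside 0.00 over all genes. For the large subunit factors the median was then 0.07 with 6 of 11 positive, for the box C/D proteins -0.01 with 2 of 4, and for the polymerase subunits -0.27 with 0 of 2.

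**Figure D4:**
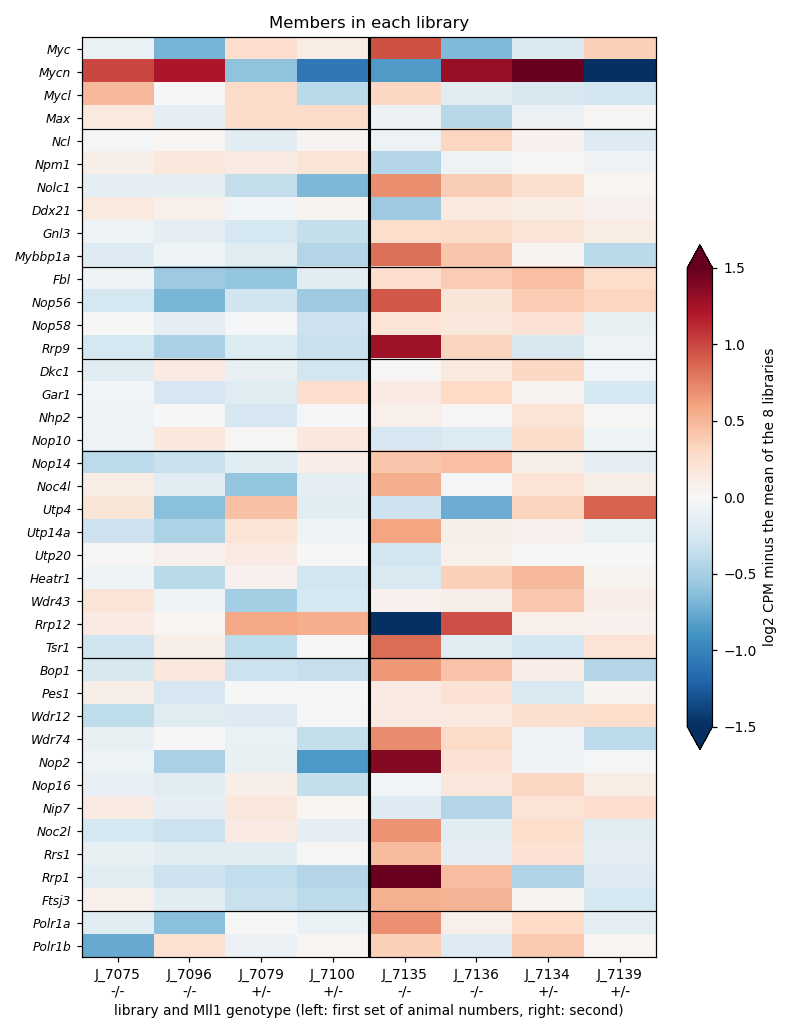
Each of the 40 genes (rows, divided into the 7 roles by lines) in each of the 8 libraries (columns, by set of animal numbers and genotype), coloured by log2 CPM minus the mean of the 8 libraries. The median of the 40 genes is 0.261 in J_7135, 0.156 in J_7136 and 0.154 in J_7134, and negative in the other 5 libraries.

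The animal numbers of the labels fall into 2 runs, J_7075 to J_7100 and J_7134 to J_7139, each with 2 animals of each genotype, and the labels do not say what the runs are. More members were separated by these sets (8 of 40) than by genotype (0 of 40). In a model with both terms, 32 of 40 members (80%) were higher and 8 lower in the second set, with a median log2 difference of 0.32, while 50.2% of all genes were higher with a median of 0.00. The 4 libraries of one set lay entirely above those of the other for 8 members (20%), of which 7 were higher in the second set, against 5.84% of all genes. An unadjusted p under 0.05 was found for 9 members (22.5%, 8 of them higher in the second set), against 9.39% of all genes. No member passed the adjusted threshold (smallest adjusted p = 0.383), nor did any other gene. Without J_7135, 9 members were separated, 8 of them higher in the second set (22.5%, against 8.99% of all genes). The comparison of the sets was chosen after seeing the data.

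Nop56 had the largest difference between the sets. It was at 139, 135, 104 and 114 CPM in J_7075, J_7079, J_7096 and J_7100 and at 217, 318, 189 and 209 CPM in J_7134, J_7135, J_7136 and J_7139, a log2 difference of 0.92 ± 0.18 (adjusted p = 0.383). Nolc1 was at 74.2, 64.1, 73.9 and 51.3 CPM in the first and at 96.6, 133, 105.8 and 83.4 CPM in the second set (0.66 ± 0.13). Gnl3 was at 198, 174, 189.7 and 163 CPM and then at 238, 251, 252 and 225 CPM (0.42 ± 0.08). In each of these genes both genotypes were higher in the second set. Wdr12 (0.39 ± 0.11), Nop2 (0.80 ± 0.32), Fbl (0.68 ± 0.30) and Nhp2 (0.16 ± 0.10) were the other members separated in this direction. For Nop2 the second set was at 23.7 to 28.6 CPM apart from J_7135 (64.3 CPM), just above the highest value of 23.4 CPM in the first set. For Nhp2 the highest value of the first set was 222.5 CPM and the lowest of the second 224.0 CPM. These separations are narrow. Npm1 was the one separated in the opposite direction, at 874 to 939 CPM in the first and 607 to 824 CPM in the second set (-0.27 ± 0.10).

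**Figure D5:**
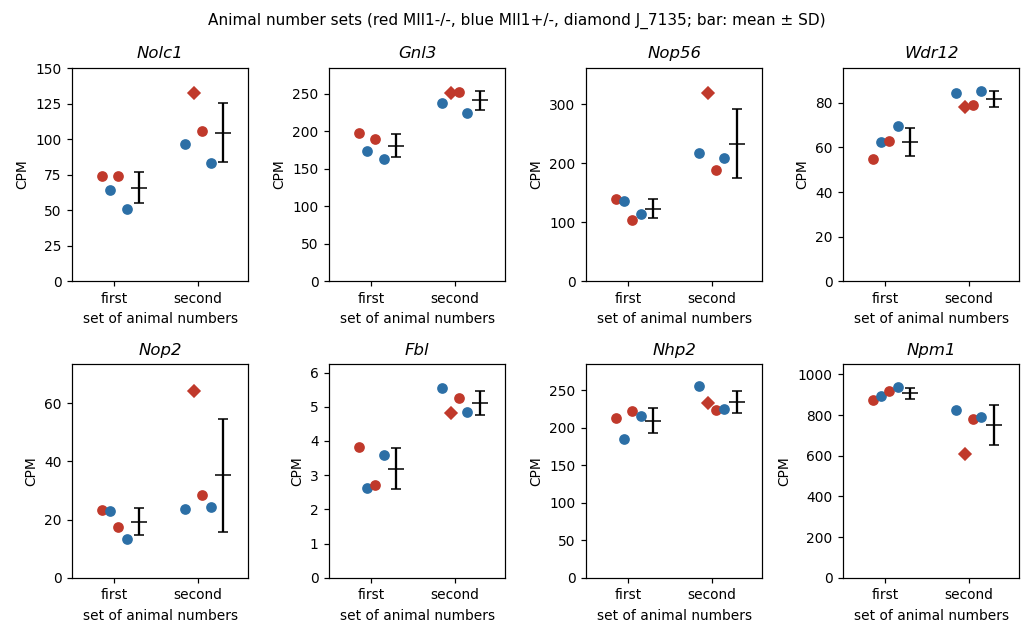
Levels in CPM of the 8 genes whose libraries did not overlap between the sets of animal numbers (points; red Mll1-/-, blue Mll1+/-, diamond J_7135), with the mean and SD of each set (black, n = 4). Both genotypes are higher in the second set for 7 genes, and both are lower for Npm1.

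By role, the box C/D proteins had the highest median difference between the sets (0.68, 4 of 4 higher in the second). The polymerase subunits followed (0.38, 2 of 2), then the large subunit factors (0.34, 10 of 11), the small subunit factors (0.33, 7 of 9), the abundant nucleolar proteins (0.24, 4 of 6), the box H/ACA proteins (0.14, 3 of 4) and the Myc family (0.06, 2 of 4). Myc itself gave 0.33 ± 0.36 and Max -0.28 ± 0.18. The summed level of the 40 genes was 4621 to 4757 CPM in the first set and 4758 to 5320 CPM in the second. Depth did not separate the sets (15512291 to 16847793 and 14468751 to 16472204 counts), nor did the mitochondrial share (18.9 to 28.7% and 17.1 to 30.1%). Other library measures did. The highest rank correlation with any other library was 0.966 throughout the first set and 0.9086 to 0.9575 in the second. The SD over all genes of log2 CPM minus the mean of the gene was 0.587 to 0.599 and 0.673 to 1.13. Their part in the difference between the sets was not tested.

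Levels of different genes can be compared only per length of the gene model, as CPM per kilobase. On this scale Nop10 (317) and Npm1 (311) led the 40 by the mean of the 8 libraries and stood among the top 1.42% of all genes tested, followed by Nhp2 (194) and Ncl (101). The order of Nop10 and Npm1 differed between the genotypes (296 and 299 in Mll1-/-, 337 and 324 in Mll1+/-), so these neighbours were not told apart. Myc stood at 40.3, close to Nop56 (43.4) and Dkc1 (42.2), and ahead of Mycl (16.6) and Max (5.51). Mycn (0.444) was the lowest of the 40, below Fbl (0.987) and Rrp12 (1.29). The gene models include retained introns, so long models such as that of Ncl (10188 bases) lower the level per kilobase.

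Other genes of the same pathways were taken from lists and read in the same way, with the threshold applied in edgeR only. Of 102 further ribosome biogenesis genes 101 were tested, with 61 positive and 40 negative log2 fold changes and a median of 0.06, and none passed the threshold. Before adjustment 7 of them (6.93%) had a p under 0.05, 6 higher in Mll1-/-. They included Wdr18 (0.66 ± 0.27), Ddx27 (0.46 ± 0.19) and Rsl1d1 (-0.33 ± 0.13) of the large subunit, Utp15 (0.50 ± 0.21) and Ddx10 (0.45 ± 0.20) of the small subunit, and Tcof1 (0.62 ± 0.24), the treacle protein that assists RNA polymerase I. Without J_7135 the values were 0.35 for Wdr18, 0.29 for Ddx27, 0.41 for Tcof1, 0.40 for Utp15, 0.40 for Ddx10 and -0.23 for Rsl1d1. Between the sets of animal numbers 73 of the 101 were higher in the second, with a median of 0.20, but 5.94% were separated, close to the background. Without J_7135 the median between the genotypes was 0.00.

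The 10 other genes of the Myc network (4 positive, 6 negative, median -0.03) held none with an unadjusted p under 0.05. Of 32 Myc targets outside the nucleolus, 16 had positive and 16 negative values, with a median of 0.00 and no gene past the threshold. Cad, which starts pyrimidine synthesis, was at 24.9 ± 9.14 CPM in Mll1-/- and 12.6 ± 1.91 CPM in Mll1+/- (SD, n = 4 each, log2 fold change 0.99 ± 0.29, adjusted p = 0.36). The translation factors Eif4a1 (0.28 ± 0.12) and Eif4e (-0.37 ± 0.15) were the other 2 with an unadjusted p under 0.05, with opposite signs. Of 4 tested genes that Myc is known to repress, the cell cycle inhibitor Cdkn1a was at 21.6 ± 8.44 CPM in Mll1-/- and 10.4 ± 3.44 CPM in Mll1+/- (1.05 ± 0.33, adjusted p = 0.42), and the median of the 4 was -0.21.

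Values of proliferation genes and of markers of other cells are given beside these results, and their part in them was not tested. None of these genes passed the threshold in edgeR with genotype as the only term. They were not read in DESeq2, which passed 406 of all genes. The study, which used DESeq2, reports Olfm4 and Defa17 as lower and Spdef as higher in Mll1-/- cells. Of 17 proliferation genes 16 had positive values (median 0.33), led by the replication helicase genes Mcm3 (0.91 ± 0.20, adjusted p = 0.2) and Mcm5 (0.77 ± 0.20). Of 10 stem cell markers 3 had positive and 7 negative values, with a median of -0.05. Their summed level was 10870 to 17580 CPM in Mll1-/- and 23080 to 27550 CPM in Mll1+/- libraries. Most of it was Olfm4 (-0.77 ± 0.17), followed by Slc12a2 (-0.87 ± 0.16), while the Wnt target Axin2 had a positive value (0.44 ± 0.13). The goblet cell list (8 of 10 positive, median 1.33, with Spdef at 2.41 ± 0.53, but Zg16 at -4.03 ± 1.23), the Paneth cell list (8 of 10 negative, median -1.06, Defa17 at -1.72 ± 0.34, but Mmp7 at 1.04 ± 0.19), the enterocyte list (7 of 8 negative, median -1.22, Fabp1 at -2.41 ± 0.71, but Vil1 at 0.42 ± 0.12), the enteroendocrine list (6 of 6 tested negative, median -1.49, Chgb at 0.367 ± 0.333 CPM in Mll1-/- and 12.1 ± 11.8 CPM in Mll1+/-) and the tuft cell list (2 of 2 tested positive, median 0.59) had medians larger in size than those of the 7 roles of the members. The 9 immune markers summed to 123 to 231 CPM in Mll1-/- and 101 to 233 CPM in Mll1+/- libraries, nearly all of it Cd74, with the B cell gene Cd79a at or below 0.179 CPM. Cd68 (1.89 to 5.55 CPM in Mll1-/-, 5.15 to 9.62 CPM in Mll1+/-) and Lyz2 (0.708 to 2.78 and 1.2 to 5.93 CPM) were counted in every library. The rest of the list stayed at or below 3.24 CPM, the highest value of Itgam. The 10 stromal and endothelial markers summed to 50.3 to 122 CPM and 6.33 to 12.03 CPM, with Vim as most of the Mll1-/- sum (72.2 ± 33.5 and 3.24 ± 2.19 CPM, adjusted p = 0.108), while the collagen genes and Acta2 stayed at or below 1.47 CPM. Pecam1 of the same list was counted in every library, at 3.95 to 5.91 CPM in Mll1-/- and 4.15 to 5.85 CPM in Mll1+/-.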

How the data were processed

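Libraries of polyadenylated RNA, amplified as full-length cDNA without molecular identifiers, were made by the authors from Lgr5-GFP+ cells of 8 mice, 4 for each genotype label. According to the processing notes of the submitters, the reads were aligned to mm10 with GSNAP 2018-07-04 and assigned to genes with featureCounts 1.6.3. Per the file headers, this was done without strand, and reads over more than 1 gene were left out. The authors deposited whole read counts for 53801 genes and 92 spike-ins, without normalization. A second deposited file gives signal, that is counts over the size factor of the library (DESeq2 1.22.2), for 25485 genes, and was used here for gene symbols. Its other columns hold the authors' own comparison of the genotypes and were not used.

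Low genes were removed by filterByExpr with a minimum count of 10 and a minimum total of 15. The rest were scaled with TMM and fitted with edgeR 4.0.16 in R 4.3.3 by robust quasi-likelihood with genotype as the only term. The SE is the size of the log2 fold change over the square root of F, and p-values were adjusted over 16445 genes (Benjamini-Hochberg, threshold 0.1, as in the study). The common coefficient of variation was 0.435. Log2 CPM used a prior count of 2. Floors cover counting error only, and intervals cover the spread between these 8 libraries only. Each animal gave a single amplified pool of cells, so differences between animals and between preparations cannot be told apart. The alternatives were DESeq2 1.42.0, limma 3.58.1 (voom), other scalings and filters, a term for the set of animal numbers and each library left out. Single values were compared by exact permutation (scipy 1.17.1), and the fit was tested on simulated data. Shared sequence words were counted in GENCODE M21 transcripts.

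All 40 genes are named. Values in every library are given for the Myc family, for genes with an unadjusted p under 0.05 and for the highest level per kilobase of each role, and up to 2 genes in each direction are named from each further list. A gene of the immune list is not reported here. The genes and lists were chosen with earlier results of these data known. The comparison of the sets, and the genes named for it or for J_7135, were chosen after their values were seen.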

Additional observations from a re-analysis of the deposited data

Results flagged for a closer look

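In each genotype, the gap between the highest or lowest of the 4 libraries and its nearest neighbour was set against the range of the 4 (Dixon's ratio, 95% critical value). This was done for the 40 genes, their median deviation and the mitochondrial share, 84 groups in all. Of these, 8 groups held a library that stood apart, and chance flags about 1 in 20. J_7135 was the library in 4 of the 8. It was the lowest of the Mll1-/- libraries for Ddx21 (82.6 CPM, others 127 to 134 CPM) and Utp20 (31.6 CPM, others 39.4 to 40.9 CPM), and the highest for Noc2l (38.6 CPM, others 19.2 to 21.5 CPM) and Rrs1 (57.5 CPM, others 36.8 to 38.1 CPM). Among the Mll1+/- libraries, J_7134 was the highest for Mycn (3.93 CPM, others 0 to 0.539 CPM) and the lowest for Pes1 (25.8 CPM, others 30.4 to 31.4 CPM). J_7079 was the highest for Utp20 (42.1 CPM, others 38.6 to 38.9 CPM), and J_7100 the lowest for Nop2 (13.5 CPM, others 22.8 to 24.3 CPM).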

How the results depend on the processing

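No member passed the threshold under any of the 16 alternatives. The number of all genes past it was 14, and became 8 with upper-quartile scaling, 47 without a filter on low counts, 34 with at least 10 counts in every library, 406 with DESeq2's Wald test, 103 with limma-voom and 0 with the set of animal numbers as a term. With 1 library left out it ran from 0 to 45, the last without J_7135. Members with an unadjusted p under 0.05 numbered 3, and 5 with DESeq2 or with the set term. They numbered 0 (without J_7136) to 6 (without J_7075 or J_7096) with 1 library left out, 1 without J_7100 or J_7139 and 5 without J_7134. In these fits 6.96 to 10.9% of all genes had such a p (9.46% without J_7075, 10.9% without J_7096), 9.98% with the set term and 11.2% with DESeq2. Members without overlap between genotypes ran from 0 to 5 (without J_7075), where 8.91 to 10.8% of all genes were separated. The median log2 fold change of the members moved by less than the within-group SD of that median (0.165), from 0.02 to 0.15 with 1 library left out and to -0.0008 with limma-voom.

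Of 319 values of single members under the settings that keep all libraries, 15 changed sign in 9 members, of which Nop56 had the largest reported log2 fold change (0.15). With upper-quartile scaling Fbl became -0.0056, Utp14a -0.0142 and Noc2l -0.0083. With the set term Utp14a became -0.0446, Noc2l -0.0189 and Polr1a -0.0129. With limma-voom Ddx21 became 0.0376, Fbl -0.0632, Nop56 -0.1578, Gar1 -0.0348, Nop14 -0.1454, Utp14a -0.2912, Noc2l -0.2253, Rrs1 -0.0721 and Polr1a -0.2644. The cause was not tested.

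With 1 library left out, 33 of 320 values changed sign, in 18 members. Their ranges were -0.13 to 0.0752 for Ddx21, -0.0334 to 0.18 for Dkc1, -0.16 to 0.17 for Fbl, -0.0245 to 0.17 for Gar1, -0.60 to 0.0867 for Myc, -0.0582 to 0.0967 for Nhp2, -0.28 to 0.12 for Noc2l, -0.027 to 0.24 for Nop14, -0.21 to 0.0041 for Nop16 and -0.23 to 0.35 for Nop56. They were -0.25 to 0.21 for Polr1a, -0.29 to 0.0463 for Polr1b, -0.74 to 0.0984 for Rrp12, -0.14 to 0.13 for Rrs1, -0.0241 to 0.41 for Tsr1, -0.24 to 0.14 for Utp14a, -0.0868 to 0.0264 for Utp20 and -0.0367 to 0.27 for Wdr43. The other 22 members kept their sign under every alternative run, Utp4, Rrp1, Ftsj3 and Npm1 among them. The range with 1 library left out was wide for Mycn (0.10 to 2.50, the last without J_7134), Rrp9 (0.12 to 0.80), Nop2 (0.14 to 0.88), Rrp1 (0.39 to 1.12), Mybbp1a (0.31 to 0.66), Nolc1 (0.19 to 0.54), Wdr74 (0.30 to 0.60) and Noc4l (0.05 to 0.33), each of the last 7 lowest without J_7135.

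Scaling on the spike-ins was not run, because 4 of the 8 libraries held 0 spike-in counts. No paired analysis was possible because the labels give no replicate numbers that the genotypes share. Low counts limit what can be read for Mycn, Rrp12, Wdr74 and Fbl, which averaged under 10 CPM. Why their counts are low was not tested.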
